A study of Mus musculus with 2 samples.

Results

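Mitogen-activated protein (MAP) kinases, the phosphatases that switch them off, and the Sprouty and Spred proteins that restrain their activation were compared between air pouch membranes stimulated with monosodium urate (MSU) crystals and control membranes. The list holds 41 genes, 24 coding for kinases and 17 for phosphatases, Sprouty or Spred proteins. A probe set, the group of short oligonucleotides that measures a transcript, was used where the platform annotation assigned it to 1 of these genes and to no other gene. This rule gave 102 probe sets for 39 of the 41 genes, out of 18193 genes on the array with such a probe set. No probe set was assigned to Mapk3 (ERK1) or Map2k7 (MKK7) alone, and both are therefore without values here.

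The air pouch is a cavity under the skin of the back whose lining resembles the membrane of a joint. The MSU pouches received 2 mg of crystals suspended in 1 ml of phosphate-buffered saline (PBS), the control pouches 1 ml of PBS, and membranes were taken 9 h afterwards. All mice were female Balb/C aged 6 to 8 weeks. RNA of 3 mice was pooled for each condition and hybridized to 1 array, so each gene has a single value per condition and no test between the conditions was possible. The sample records and the study's methods differ in the volume of air and the day of injection.

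In a MAP kinase cascade, a MAP3 kinase phosphorylates a MAP2 kinase, which in turn phosphorylates a MAP kinase on a threonine and a tyrosine. The ERK branch is best known for responses to growth factors, and the JNK and p38 branches for responses to stress and inflammatory cytokines. Dual specificity phosphatases remove both phosphates and so inactivate MAP kinases, and several of their genes are themselves transcribed in response to MAP kinase signals. Sprouty and Spred proteins act further upstream, where they restrain signalling through Ras and Raf.

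Deposited signals were linear and had been scaled by the authors to a common trimmed mean of 150 (the highest and lowest 2% of probe sets left out). The median signal over 45101 probe sets was 59.2 on the MSU array and 56.4 on the control array. A detection floor was set for each array from the number of probe sets that the study counted as detected, at a signal of 74.1 on the MSU array and 64.6 on the control array. A gene with both signals at or above the floor is given a fold, and a gene with only 1 of them above it a bound, written "at least", for which the floor replaces the lower signal. Genes with either are called measured. Of several probe sets, the brightest by mean log2 signal stands for the gene. Within genes, the log2 ratios of different probe sets had a pooled SD of 0.33 (4002 genes) and, among the 18 members with at least 2 folds, of 0.26. This spread contains nothing of the variation from mouse to mouse.

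Over the array, 3.70% of 11155 measured genes reached 2-fold in the higher direction in MSU membranes and 4.29% in the lower direction, a fixed size and not a test. The RNA spiked into each hybridization gave brighter signals on the MSU array for all 18 of its probe sets (median ratio 1.37). It is added at the hybridization step and does not measure how much mRNA the membranes held. Which scaling is nearer the truth was not tested. Scaling on these probe sets lowers every log2 ratio by 0.46. The counts over all genes change from 413 higher and 478 lower to 200 higher and 1787 lower. Mature neutrophil markers reached 2-fold higher for 9 of the 10 measured, and the summed signal of the 11 on the array was 23956 in the MSU pool and 2966 in the control pool. Of 6 adipocyte markers, summed signal 3511 (MSU) and 12952 (control), 5 were at least 2-fold lower, as were 5 of 10 skeletal muscle markers. Of 9 measured resident macrophage markers 1 was at least 2-fold lower and none higher, with summed signals of 22523 (MSU) and 23521 (control). None of 5 measured endothelial markers passed 2-fold. All 9 fibroblast markers were measured and none passed 2-fold, whereas all 4 T cell markers with a probe set lay below the floor in both pools. In whole membranes, fewer cells of a type and less RNA per cell cannot be told apart.

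Of the 34 members measured, 5 reached 2-fold higher, namely the phosphatase genes Dusp1, Dusp2, Dusp5 and Dusp16 and the kinase gene Map2k1, and none reached 2-fold lower. This is 4 of 13 measured phosphatase, Sprouty and Spred genes and 1 of 21 measured kinase genes, set against 3.70% higher and 4.29% lower over all measured genes. With scaling on the spike-ins, only Dusp5 remained at least 2-fold higher, and Dusp10, Dusp14, Mapk12 and Map2k5 were at least 2-fold lower. At that scaling, 200 (1.77%) of 11282 measured genes over the array were higher and 1787 lower. Earlier results of these data, among them the high ratios of Dusp5 and Dusp16, were already known when the list was drawn up. Without Dusp5 and Dusp16, 2 of 11 phosphatase, Sprouty and Spred genes and 3 of all members passed 2-fold. Leaving them out does not make these counts independent of the earlier results.

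**Figure D1:**
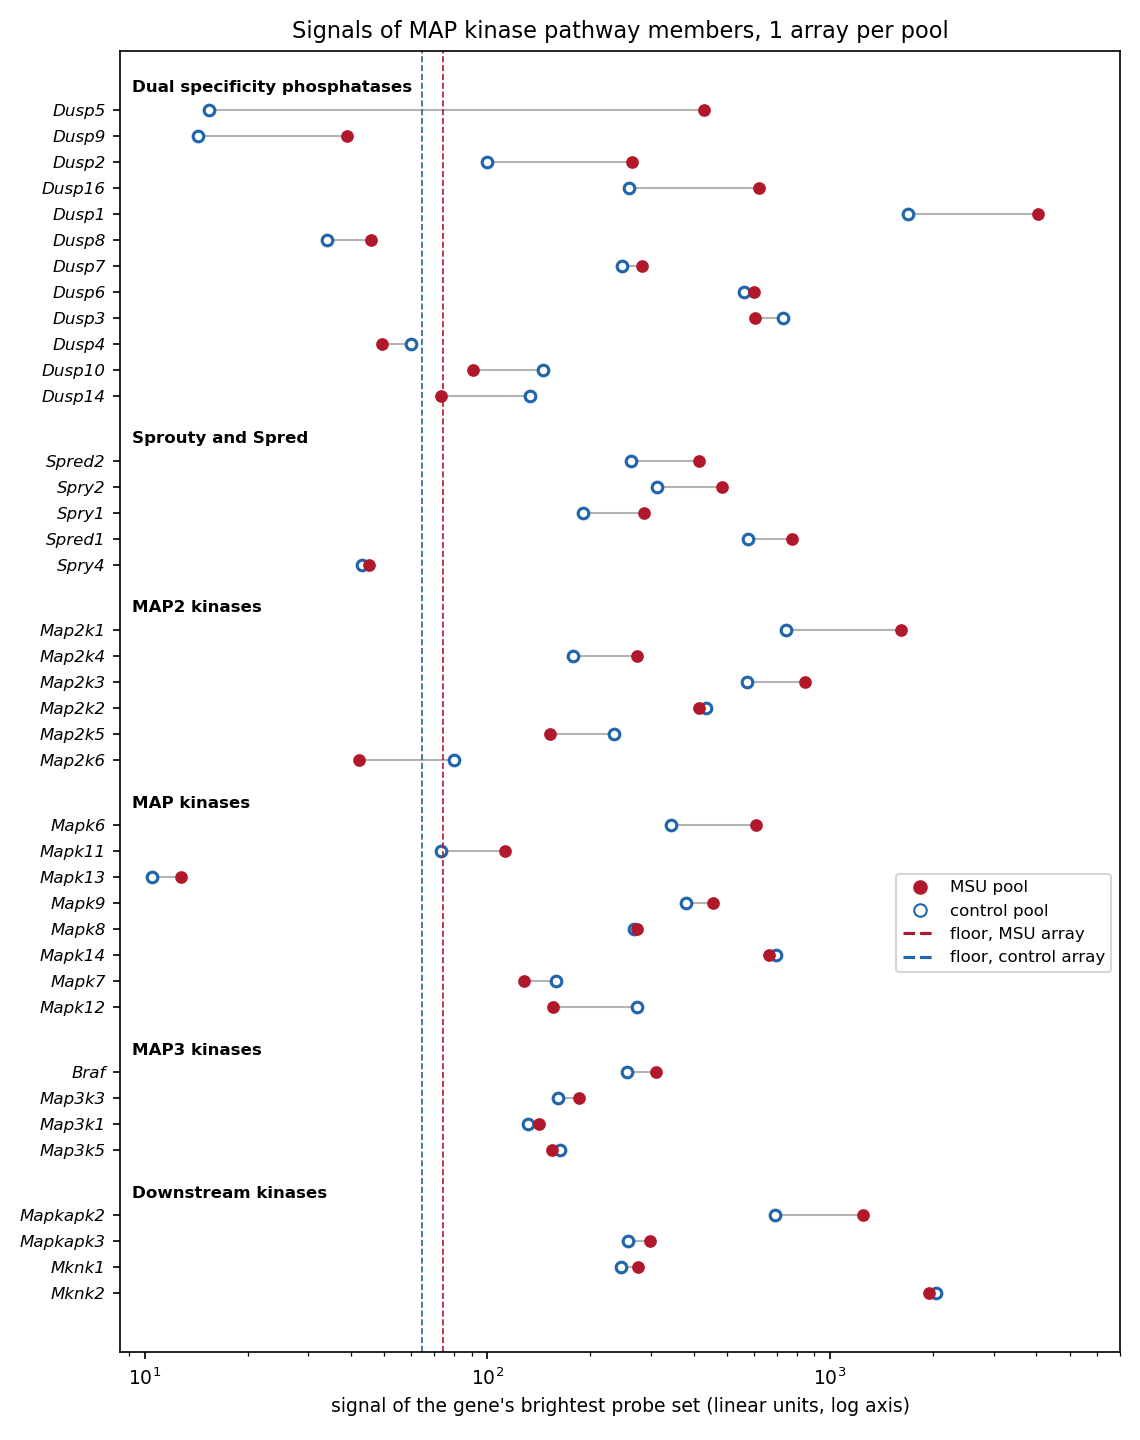
Signal of the brightest probe set of each of 39 genes (x axis, linear units on a log axis) in the MSU pool (red, filled) and the control pool (blue, open), 1 array per pool, with the detection floors as dashed lines (74.1 for MSU and 64.6 for control). Dusp5 has the longest line, with its MSU signal of 429 above and its control signal of 15.4 below both floors.

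Promoters of the 5 genes at least 2-fold higher are shown because dual specificity phosphatase genes are known as targets of transcription factors that act through the cyclic AMP response element (CRE) and the serum response element. The sequences are from RefSeq (GRCm38.p6) and hold the 250 bases before the start of each gene, 5′ to 3′ on its own strand. Capitals mark the CRE (TGACGTCA), its core (TGACG) and the CArG box, the core of the serum response element, on either strand.
Dusp5 (chr19:53528895-53529144, + strand): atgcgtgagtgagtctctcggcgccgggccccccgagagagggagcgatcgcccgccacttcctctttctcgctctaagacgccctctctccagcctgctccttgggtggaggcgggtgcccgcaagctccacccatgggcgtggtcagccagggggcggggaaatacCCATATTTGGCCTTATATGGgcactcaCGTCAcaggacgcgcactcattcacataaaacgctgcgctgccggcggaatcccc
Dusp2 (chr2:127335909-127336158, + strand): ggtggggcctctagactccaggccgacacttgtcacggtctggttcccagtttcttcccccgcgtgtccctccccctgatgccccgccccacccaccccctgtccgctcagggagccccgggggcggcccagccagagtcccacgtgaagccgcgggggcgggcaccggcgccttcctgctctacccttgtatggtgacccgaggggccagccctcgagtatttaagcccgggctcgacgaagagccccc
Dusp16 (chr6:134792629-134792878, - strand): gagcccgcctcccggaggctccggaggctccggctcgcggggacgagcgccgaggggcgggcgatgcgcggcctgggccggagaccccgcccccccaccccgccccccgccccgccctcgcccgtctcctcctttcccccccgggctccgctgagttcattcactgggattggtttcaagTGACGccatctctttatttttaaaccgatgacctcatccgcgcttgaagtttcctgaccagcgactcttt
Dusp1 (chr17:26508473-26508722, - strand): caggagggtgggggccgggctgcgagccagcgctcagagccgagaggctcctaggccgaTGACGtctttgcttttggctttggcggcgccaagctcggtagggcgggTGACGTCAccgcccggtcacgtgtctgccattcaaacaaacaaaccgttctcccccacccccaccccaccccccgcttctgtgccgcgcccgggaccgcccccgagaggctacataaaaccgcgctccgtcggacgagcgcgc
Map2k1 (chr9:64253606-64253855, - strand): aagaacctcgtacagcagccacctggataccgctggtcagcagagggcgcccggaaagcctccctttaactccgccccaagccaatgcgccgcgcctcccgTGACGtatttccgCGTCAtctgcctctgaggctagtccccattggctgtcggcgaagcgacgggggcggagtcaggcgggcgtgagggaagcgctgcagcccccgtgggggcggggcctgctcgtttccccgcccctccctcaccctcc

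Of 37 members with a promoter in the RefSeq table, searched from 250 bases before to 50 bases after the start, 15 held the CRE core in at least 1 promoter. Counted by promoter, this was 15 of 47 member promoters, against 20.8% of all 32851 promoters of this length. All 5 genes at least 2-fold higher held it, as did 10 of the 32 other members, among them Mapk6, Mapkapk2 and Spred2. In Dusp2 the match begins 5 bases after the start, outside the stretch printed. The Mapkapk2 match also lies after the start, by 10 bases. The full CRE, which includes 2 overlapping cores, was found in Dusp1, 143 bases before the start, and in Dusp8 and Braf, which is 3 of 47 member promoters, against 1.79% of all promoters. The CArG box was searched after the Dusp5 sequence had been seen. Dusp5 held 2 directly adjacent copies, beginning 82 and 72 bases before the start, Mknk2 held 1, and 1.63% of all promoters held any. The AP-1 site (TGANTCA) was found in Map2k6 and Map2k7 (7.81% of all promoters) and the NF-κB site in Mapk7 (8.46%), and neither in the 14 phosphatase, Sprouty and Spred genes searched. Dusp4, Dusp9, Spry4 and Mapk3 were not searched. A match describes the letters in this window and does not show that a factor binds there.

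**Figure D2:**
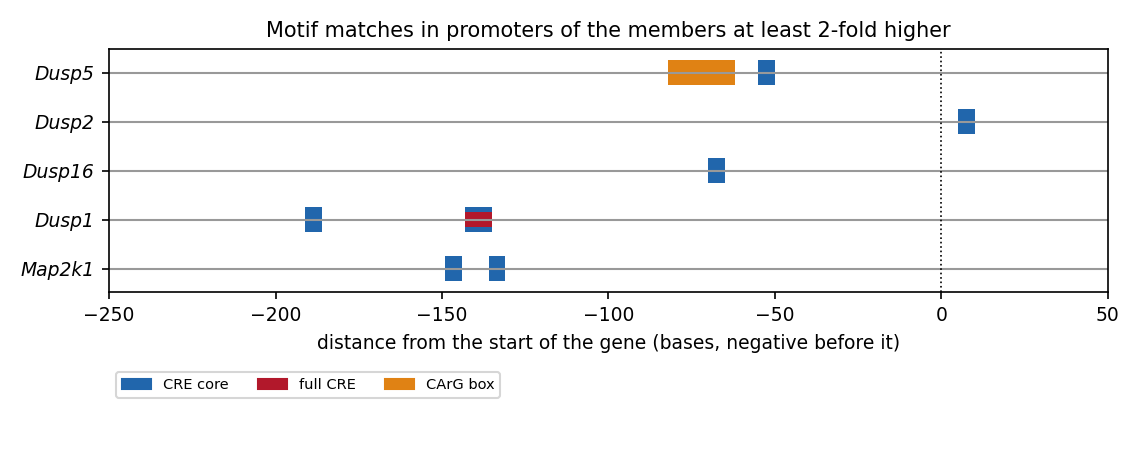
Positions of the CRE core (blue), the full CRE (red) and the CArG box (orange) in the promoters of the 5 members at least 2-fold higher (rows), by distance from the gene start (x axis, bases, negative before it). Each gene has at least 1 CRE core, and the 2 CArG boxes of Dusp5 lie side by side, 82 and 72 bases before the start.

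Nuclear phosphatases that are induced by MAP kinase signals, coded by Dusp1, Dusp2, Dusp4 and Dusp5, included the 2 members of highest ratio, Dusp5 and Dusp2. Dusp5, which codes for a phosphatase selective for ERK, had a signal of 429 in the MSU pool and 15.4 in the control pool, which is at least 6.64-fold higher with the floor in place of the control signal and 27.9 as the ratio of the signals themselves (probe set 1437199_at). Its control signal lay far below the floor, so the size of the difference is known only as a bound, which depends on the floor chosen. With the floor at the 15000th signal of each array, the bound is a log2 ratio of 1.89 in place of 2.73. Dusp2 (PAC-1), a phosphatase of activated leukocytes, had a signal of 265 in the MSU pool and 99.6 in the control pool and was 2.66-fold higher. Dusp1 (MKP-1), which dephosphorylates p38 and JNK and limits cytokine production in macrophages, had a signal of 4031 in the MSU pool and 1692 in the control pool and was 2.38-fold higher. The log2 ratios of Dusp2 (1.41) and Dusp1 (1.25) were above those of 98.2% and 97.7% of the 10045 genes with a fold. Dusp4 (MKP-2) lay below the floor on both arrays, with signals of 49.2 (MSU) and 59.8 (control). Each of these 4 genes had a single probe set, and under spike-in scaling neither Dusp1 nor Dusp2 reached 2-fold.

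Cytoplasmic phosphatases selective for ERK, coded by Dusp6, Dusp7 and Dusp9, did not reach 2-fold. Dusp6 (MKP-3), a widely used transcript readout of ERK activity, had a signal of 599.7 in the MSU pool and 560.5 in the control pool, 1.07-fold higher. Dusp7 (PYST2) had 3 probe sets, 1.15-, 1.38- and 1.18-fold higher, the first and brightest with signals of 283 in the MSU pool and 247 in the control pool. All these ratios lay within 0.47 of equality on the log2 scale, and for both genes scaling on the spike-ins turned the brightest probe set to lower. Dusp9 (MKP-4) lay below the floor on all 3 probe sets, with signals of 39.0 (MSU) and 14.4 (control) on the brightest.

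Phosphatases that prefer JNK and p38, coded by Dusp8, Dusp10 and Dusp16, had ratios on both sides of equality, with 1 past 2-fold. Dusp16 (MKP-7) had a signal of 620 in the MSU pool and 259 in the control pool on its brighter probe set (1418401_a_at) and was 2.40-fold higher. Its other probe set (1440615_at) had signals of 93.0 in the MSU pool and 4.78 in the control pool, a plain ratio of 19.5 that the floor limits to at least 1.44-fold higher. Both probe sets were thus higher in the MSU pool, but the larger of the 2 plain ratios rests on a control signal far below the floor. Dusp10 (MKP-5) had a signal of 91.0 in the MSU pool and 145 in the control pool and was 1.60-fold lower, a log2 ratio of -0.67 that became a bound of -0.31 with the floor at the 15000th signal. Dusp8 was below the floor on all 3 probe sets, the brightest with signals of 45.7 (MSU) and 34.1 (control).

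The remaining phosphatase genes of the list, Dusp3 (VHR) and Dusp14 (MKP-6), code for small enzymes without the MAP kinase binding domain of the others. Dusp3 had a signal of 606 in the MSU pool and 728 in the control pool, 1.20-fold lower, and its other probe sets were 1.15- and 1.20-fold lower. Dusp14, known as a negative regulator of T cell receptor signalling, had a signal of 73.4 in the MSU pool, just below the floor, and 133 in the control pool, at least 1.80-fold lower. This bound too depends on the floor, with a log2 ratio of -0.85 as given and of -0.19 with the floor at the 15000th signal. All 4 T cell markers lay below the floor in both pools.

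Over the 9 measured dual specificity phosphatase genes, 4 were at least 2-fold higher, and the 7 with a fold had a median log2 ratio of 0.20 and a range of -0.67 to 1.41. The ratios thus lay on both sides of equality. Neutrophil markers and the higher phosphatase genes were higher in the same pool, and the part of cell numbers in these ratios was not tested.

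None of the 4 measured Sprouty and Spred genes reached 2-fold in either direction. Spry1, an inhibitor of receptor tyrosine kinase signalling, had a signal of 287 in the MSU pool and 189.7 in the control pool, 1.51-fold higher. Spry2, its close relative, had a signal of 483 in the MSU pool and 313 in the control pool, 1.54-fold higher, and was below both floors on its second probe set. Spred2, which holds back Raf activation, had a signal of 415 in the MSU pool and 262 in the control pool, 1.58-fold higher, and all 5 of its probe sets had plain ratios above 1. The log2 ratios of these 3 genes lay between 0.60 and 0.66, and on the brightest probe set each ratio stayed above 1 under spike-in scaling. The second fold of Spred2 had a log2 ratio of 0.33, less than the 0.46 that this scaling takes off.

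Spred1, which binds neurofibromin and Ras, had a signal of 773 in the MSU pool and 575 in the control pool, 1.34-fold higher on the brightest probe set. Its 7 probe sets with a fold disagreed, with log2 ratios between -0.56 and 0.51 (SD 0.39), and spike-in scaling turned the brightest to lower. Spry4 lay below the floor on all 4 probe sets, the brightest with signals of 45.2 (MSU) and 43.1 (control). The median log2 ratio of the 4 measured Sprouty and Spred genes was 0.61, against -0.05 over all genes with a fold.

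**Figure D3:**
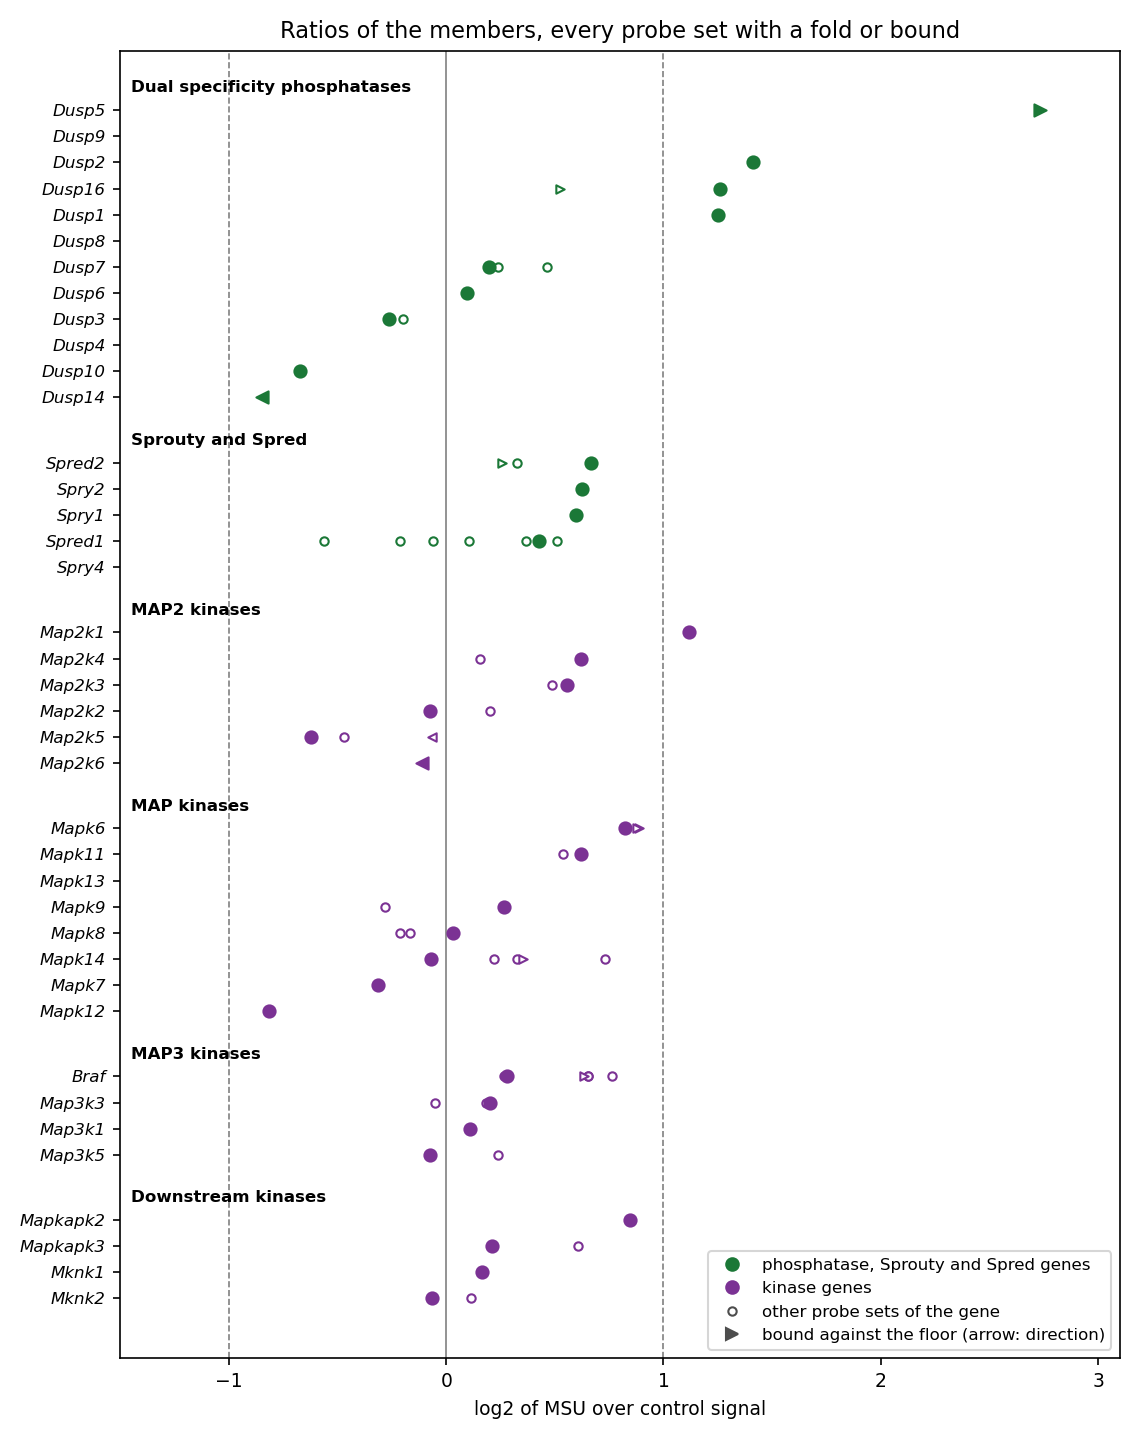
Ratios of MSU to control signal (x axis, log2) for every member probe set with a fold (circles) or a bound against the floor (triangles), by gene (y axis) and class, 1 array per pool, with large filled symbols for the probe set that represents the gene, small open ones for its other probe sets, and dashed lines at 2-fold. Dusp5, Dusp2, Dusp16, Dusp1 and Map2k1 lie right of 2-fold, no gene lies left of 2-fold lower, and the 7 circles of Spred1 spread from -0.56 to 0.51.

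In the ERK branch, Map2k1 was the only 1 of 3 measured kinases past 2-fold. Map2k1 (MEK1), which phosphorylates ERK, had a signal of 1611 in the MSU pool and 743 in the control pool and was 2.17-fold higher, on a single probe set (1416351_at). Map2k2 (MEK2), its close homologue, had a signal of 413 in the MSU pool and 435 in the control pool, 1.05-fold lower, and its second probe set was 1.15-fold higher. Braf, the MAP3 kinase that activates both, had a signal of 310 in the MSU pool and 255 in the control pool, 1.21-fold higher. The plain ratios of all 9 Braf probe sets were above 1, and the 5 folds reached 1.70-fold, but spike-in scaling turned the brightest to lower.

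The atypical MAP kinase gene Mapk6 (ERK3), whose protein is short-lived and lacks the usual tyrosine of the activation loop, had a signal of 608 in the MSU pool and 343 in the control pool, 1.77-fold higher. Its other probe sets had dimmer signals of 120, 119 and 55.7 in the MSU pool and of 40.0, 39.9 and 16.6 in the control pool, with plain ratios of 2.99, 2.98 and 3.35. The first and second of these were at least 1.85- and 1.84-fold higher against the floor, so all 4 probe sets ran the same way.

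No p38 branch gene reached 2-fold, and the ratios lay on both sides of equality. Map2k3 (MKK3), which activates p38, had a signal of 844 in the MSU pool and 574 in the control pool, 1.47-fold higher, with its second probe set 1.40-fold higher and a log2 ratio of 0.10 under spike-in scaling. Mapkapk2 (MK2), the p38 substrate that stabilizes cytokine mRNAs, had a signal of 1244 in the MSU pool and 693 in the control pool, 1.80-fold higher. Its log2 ratio of 0.84 was above that of 95.5% of genes with a fold, and was 0.39 under spike-in scaling. Mapk14 (p38α) had a signal of 664 in the MSU pool and 696 in the control pool, 1.05-fold lower, while its 3 other folds were 1.17-, 1.25- and 1.66-fold higher. Mapk11 (p38β) had a signal of 113 in the MSU pool and 73.3 in the control pool, 1.54-fold higher, close to the floor. Mapkapk3 (MK3), a relative of MK2, had a signal of 298 in the MSU pool and 258 in the control pool, 1.16-fold higher, a direction that spike-in scaling turned, and 1.52-fold higher on its second probe set. Mapk13 (p38δ) lay below the floor, with signals of 12.8 (MSU) and 10.5 (control).

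Mapk12 and Map2k6 had lower signals in the MSU pool, short of 2-fold as deposited. Mapk12 (p38γ), most abundant in skeletal muscle, had a signal of 155 in the MSU pool and 273 in the control pool and was 1.76-fold lower, while its second probe set, below both floors, had signals of 65.5 (MSU) and 37.7 (control). Map2k6 (MKK6), a further activator of p38, had signals of 42.3 in the MSU pool and 80.1 in the control pool, at least 1.08-fold lower. The 10 skeletal muscle markers had a summed signal of 22798 in the MSU pool and 38588 in the control pool and a median log2 ratio of -1.10. Their part in the Mapk12 and Map2k6 values was not tested.

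No JNK branch gene reached 2-fold, and Map2k4 had the highest ratio among them. Mapk8 (JNK1) had a signal of 273 in the MSU pool and 268 in the control pool, 1.02-fold higher, with its 2 other folds 1.12- and 1.16-fold lower. Mapk9 (JNK2) had a signal of 457 in the MSU pool and 380 in the control pool, 1.20-fold higher, and was 1.22-fold lower on its second probe set. Map2k4 (MKK4), which activates JNK, had a signal of 274 in the MSU pool and 178 in the control pool, 1.54-fold higher, and 1.11-fold higher on its second probe set. Map3k1 (MEKK1), upstream of both, had a signal of 142 in the MSU pool and 131 in the control pool, 1.08-fold higher. Spike-in scaling turned Mapk8, Mapk9 and Map3k1 to lower. Map3k5 (ASK1), activated by oxidative stress upstream of JNK and p38, had a signal of 155 in the MSU pool and 163 in the control pool, 1.05-fold lower, and 1.18-fold higher on its second probe set.

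In the ERK5 branch, Map2k5 (MEK5) had a signal of 153 in the MSU pool and 235 in the control pool and was 1.54-fold lower, with its second fold 1.39-fold lower. Mapk7 (ERK5), its only known substrate among the MAP kinases, had a signal of 128 in the MSU pool and 159 in the control pool, 1.24-fold lower. Map3k3 (MEKK3), upstream of both, had a signal of 186 in the MSU pool and 161 in the control pool, 1.15-fold higher, a direction that spike-in scaling turned. The kinases Mknk1 and Mknk2, which phosphorylate the translation factor eIF4E after activation by ERK or p38, had ratios close to 1. Mknk1 had a signal of 275 in the MSU pool and 245 in the control pool, 1.12-fold higher and lower under spike-in scaling, and Mknk2 a signal of 1944 in the MSU pool and 2035 in the control pool, 1.05-fold lower.

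Set side by side, the 11 phosphatase, Sprouty and Spred genes with a fold had a median log2 ratio of 0.60 (range -0.67 to 1.41), with 9 above 0. The 20 kinase genes with a fold had a median of 0.18 (range -0.81 to 1.12), with 13 above 0. Over 10045 genes the median was -0.05. Of the first class, the 7 dual specificity phosphatase genes had a median of 0.20, near that of the kinases. The 4 Sprouty and Spred genes had a median of 0.61. Among the kinases, medians were 0.56 for the 5 MAP2 kinases with a fold, 0.16 for MAP3 kinases, 0.03 for MAP kinases and 0.19 for downstream kinases. With the bound of Map2k6 included, the MAP2 kinase median was 0.24. Under spike-in scaling the kinase median was -0.27, below 0, where that of all genes was -0.51. The difference of 0.41 between the medians, phosphatase, Sprouty and Spred genes minus kinase genes has no test with 1 array per condition, and the ranges overlapped over most of their length. The difference was 0.33 without Dusp5 and Dusp16. Dusp5 has a bound and does not enter these medians, so the change comes from leaving out Dusp16. Among members with at least 2 folds, all folds ran the same way for 10 of 18, which is 55.6%, and for 60.1% of such genes on the whole array. Probe sets without a fold were not counted. The members whose folds disagreed in direction were Mapk8, Mapk9, Mapk14, Map2k2, Map3k3, Map3k5, Mknk2 and Spred1.

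Other genes of the pathway, on lists drawn up with earlier results of these data known, are given for comparison. Among other feedback genes, 4 of 7 measured reached 2-fold higher, against 3.70% of all genes, and none 2-fold lower, with a median log2 ratio of 1.12. This list is not confined to inhibitors of the pathway, since it includes Ier3. Ier3, an early response gene that prolongs ERK phosphorylation, had a signal of 4519 in the MSU pool and 1609 in the control pool, 2.81-fold higher, and Errfi1 (MIG6), an inhibitor of the EGF receptor, a signal of 3665 in the MSU pool and 1688 in the control pool, 2.17-fold higher. The pseudokinase gene Trib1 was 2.47-fold and Rasa2, which codes for a Ras GTPase activating protein, 2.28-fold higher. Scaled on the spike-ins, the log2 ratio was 1.03 for Ier3, past 2-fold, and 0.85 for Trib1, 0.73 for Rasa2 and 0.66 for Errfi1, short of it.

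Among transcripts known to follow ERK activity, 4 of 14 measured reached 2-fold higher, against 3.70% of all genes, and none 2-fold lower. Under spike-in scaling Myc, at a log2 ratio of 0.84, no longer reached 2-fold, and Ccnd1, at -1.21, was past 2-fold lower. At that scaling, 1787 of 11282 measured genes over the array were at least 2-fold lower. The urokinase receptor gene Plaur was 4.79-fold higher, with a signal of 2691 in the MSU pool and 562 in the control pool. Phlda1 was 3.79-fold, the AP-1 subunit gene Fosl1 3.57-fold and Myc 2.46-fold higher, whereas the cyclin gene Ccnd1 was 1.69-fold lower. Fos, with signals of 2463 in the MSU pool and 1537 in the control pool, was 1.60-fold higher. The membrane protein gene Emp1, the brightest of these transcripts, had signals of 2741 in the MSU pool and 2192 in the control pool, 1.25-fold higher, a direction that spike-in scaling turned.

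Among other MAP, MAP2, MAP3 and MAP4 kinase genes, 1 of 15 measured was at least 2-fold higher, against 3.70% of all measured genes higher and 4.29% lower. The same shares stand beside the counts of the other lists in this paragraph. They do not apply to calls under spike-in scaling, where 1787 of 11282 measured genes over the array were at least 2-fold lower. The kinase gene past 2-fold was Map3k8 (TPL2), which connects Toll-like receptors to MEK1 in macrophages. Map3k8 had a signal of 320 in the MSU pool and 100.1 in the control pool, 3.19-fold higher. The brightest were Tab2, an adaptor of the kinase TAK1, with 1338 in the MSU pool and 1102 in the control pool, and Map3k12, with 773 in the MSU pool and 509 in the control pool. None was at least 2-fold lower, except under spike-in scaling Map4k5, at a log2 ratio of -1.07, and the 13 with a fold had a median log2 ratio of 0.23. Of 15 measured Ras, Raf and adaptor genes, none passed 2-fold in either direction, with folds between -0.51 and 0.51 on the log2 scale. The adaptor genes Spag9 and Lamtor3 had the highest MSU signals of this list, 1192 and 762, against 1285 and 1088 in the control pool. Of 9 measured atypical dual specificity phosphatase and other phosphatase genes none passed 2-fold, except under spike-in scaling Dusp12, at a log2 ratio of -1.30. The brightest were Ppm1b, with 569 in the MSU pool and 629.8 in the control pool, and Dusp11, with 624 in the MSU pool and 563 in the control pool. Of 3 other downstream kinase genes the 2 measured, Rps6ka3 (RSK2) and Mapkapk5, were 1.36- and 1.06-fold higher, and both were lower under spike-in scaling, at log2 ratios of -0.01 and -0.37.

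**Figure D4:**
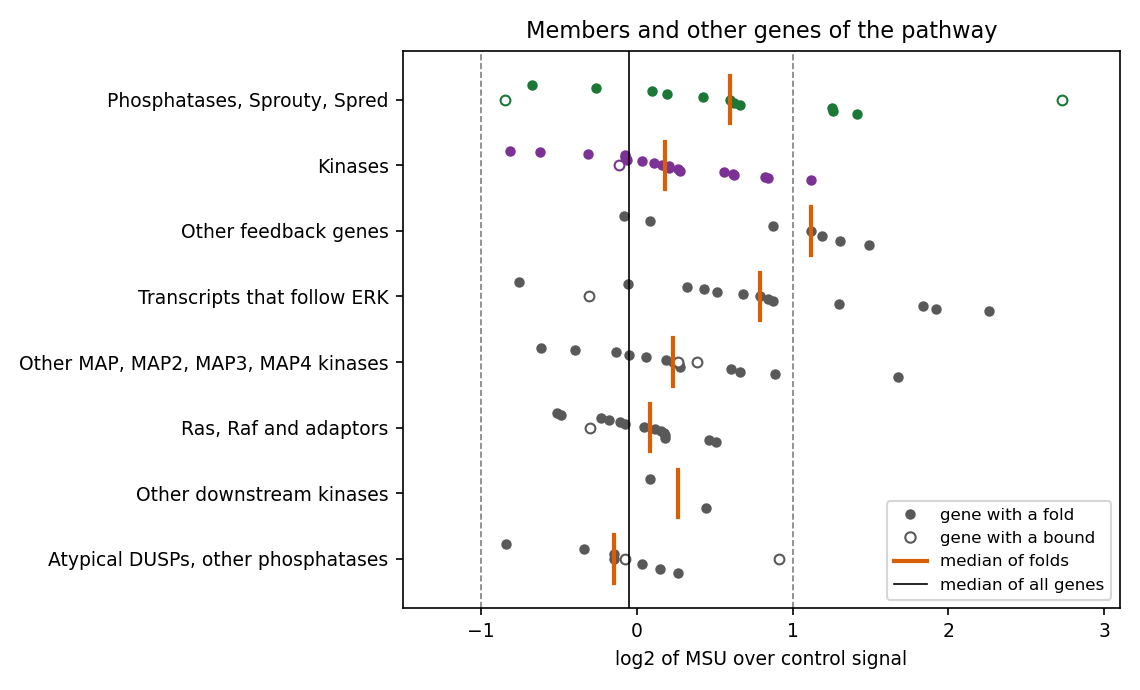
Ratios of MSU to control signal (x axis, log2) of members and of other pathway genes by list (y axis), 1 array per pool, with filled points for folds, open points for bounds, orange bars for list medians, a black line for the median of all genes (-0.05) and dashed lines at 2-fold. The medians are 0.60 for the phosphatase, Sprouty and Spred genes, 0.18 for the kinases and 1.12 for the other feedback genes, and the points of the lists overlap. The dual specificity phosphatase genes alone have a median of 0.20.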

How the data were processed

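Membrane RNA was hybridized to Affymetrix Mo430_2 arrays, 1 for the MSU pool and 1 for the control pool, each of 3 mice. The authors deposited linear intensity values per probe set, made with Affymetrix software and scaled by a factor for each array. The submitters' processing notes name MAS5, without a version. These values were used unchanged, and the 64 control probe sets were left out of gene values. The platform annotation names 1 gene for 34958 probe sets and several for 932, which were used for no gene, and for 34754 the gene identifier matched the RefSeq table of GRCm38.p6. Floor, folds and bounds are defined in the report. The floor ranks signals alone and can disagree with the detection call of a probe set.

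No p-value was computed, since each condition has 1 array, and the number of arrays limits the precision. The members and lists were chosen with earlier results of these data known. Every member is accounted for, and of other lists the genes past 2-fold and those of highest signal are named, with a few chosen after their values were seen. Alternatives were median, quantile and spike-in scaling, a floor at the 15000th signal, no floor, the floor as a pseudocount, the median over probe sets, no _x_at or _s_at probe sets, bounds in the medians, and a size of 3-fold. Leaving out Dusp5 and Dusp16 was added after seeing the data. The computation was tested on simulated data. Python 3.11.15, numpy 2.4.6, pandas 2.3.3 and matplotlib 3.10.9 were used.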

Additional observations from a re-analysis of the deposited data

How the results depend on the processing

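Scaling on the spike-ins changed the results most. The members at least 2-fold higher were then 1 in place of 5 and those lower 4 in place of 0, the phosphatase, Sprouty and Spred genes higher 1 in place of 4, and the kinase genes higher 0 in place of 1 and lower 2 in place of 0. Of 11282 genes measured over the array at this scaling, 200 (1.77%) were higher and 1787 lower. The median log2 ratio was 0.14 for phosphatase, Sprouty and Spred genes and -0.27 for kinase genes, whose sign turned, while the difference between the medians stayed at 0.41 because the scaling shifts all ratios alike. Of 34 measured members, 10 changed direction under it, 6 when the median over probe sets was taken, and 1 each under median scaling and with the floor as a pseudocount. At 3-fold, 1 member was higher (1 phosphatase gene, 0 kinase genes). Without Dusp5 and Dusp16, 3 members and 2 phosphatase, Sprouty and Spred genes were at least 2-fold higher. With no floor, Dusp9 was added to the higher members, making 6. The difference between the medians ranged from 0.22, with the floor as a pseudocount, to 0.43, with the 15000th signal as the floor or with bounds included. Over the alternatives other than spike-in scaling and the omission of genes, the median ranged from 0.40 to 0.62 for phosphatase, Sprouty and Spred genes and from 0.11 to 0.20 for kinase genes. Over all genes, 413 reached 2-fold higher and 478 lower, against 1623 and 1724 with no floor, 330 and 217 with the floor as a pseudocount, and 164 and 80 at 3-fold. Median scaling gave 371 and 582 and moved the share of higher genes among these to 38.9%, against 46.4%. No setting addresses variation between mice or arrays. No paired analysis was possible because each condition has 1 array. Signals near or below the floor limit what can be said of Dusp4, Dusp8, Dusp9, Mapk13 and Spry4. With another floor setting, the log2 ratios of Dusp2, Dusp5, Dusp10, Dusp14 and Map2k6 moved by more than the pooled SD of 0.33.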

Other observations

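Several further phosphatase genes of the wider family had unequal signals without a fold past 2. Dusp18, an atypical dual specificity phosphatase, had a signal of 122 in the MSU pool and 38.7 in the control pool, at least 1.88-fold higher with the floor in place of the control signal. Dusp15 lay below both floors, with signals of 59.8 (MSU) and 17.0 (control). Dusp12 was 1.79-fold lower, with a signal of 136 in the MSU pool and 243 in the control pool, past 2-fold lower under spike-in scaling. At that scaling, 1787 of 11282 measured genes over the array were at least 2-fold lower. 

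Among the early growth response genes, which ERK signals induce through the serum response element, Egr1 had a signal of 1967 in the MSU pool and 1462 in the control pool, 1.35-fold higher, a direction that spike-in scaling turned. Egr2 was 1.84-fold higher, with signals of 441 (MSU) and 240 (control), and Egr3 1.04-fold lower, with 273 (MSU) and 283 (control). Hbegf, which codes for a ligand of the EGF receptor, was 1.79-fold higher, with 257 (MSU) and 143 (control).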
